A study of Mus musculus with 20 samples.

Results

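The genes described here are 38 genes of hepatic stellate cells and of the extracellular matrix they make, among the 22298 genes listed for the livers of 20 mice. They were chosen by gene symbol, with earlier results of these data known, so the shares of members called below are descriptions of this choice. They cover collagens, basement membrane chains, contractile proteins, proteases and their inhibitors, cross-linking enzymes, elastic fibre proteins, small proteoglycans, matricellular proteins, signals and receptors. All 38 were found in every library. One of them, Smoc2, was chosen because earlier results of these data showed it raised by knockdown, so its values are given as a description with no test and every count of members leaves it out. The mice were male Lepr db/db animals, which become obese and diabetic for want of a functional leptin receptor, and no lean mice are among these libraries. At 5 weeks of age each received an AAV8 vector by tail vein, either with a shRNA that targets nothing (Vec) or with 4 shRNAs in 1 construct against Pparg, the gene of the nuclear receptor PPARγ (shRNA). Each was then given vehicle (CMC-Na) or benzbromarone (BBR), a uricosuric drug, by daily gavage at 25 mg/kg for 4 weeks. This made 4 groups of 5 mice, named Vec, Vec+BBR, shRNA and shRNA+BBR, with 1 library of polyadenylated liver RNA per mouse.

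Hepatic stellate cells lie between the hepatocytes and the sinusoidal endothelium and store vitamin A while quiescent. On injury they can become myofibroblasts, which express smooth muscle actin and secrete fibrillar collagens, and TGF-β and PDGF are the classical signals for this change. Quiescent stellate cells express PPARγ, while AAV8 vectors mainly enter hepatocytes. Portal fibroblasts, vascular smooth muscle cells and endothelial cells express several of the same genes. Whole liver was sequenced, so that a higher share of cells of a type and more RNA per cell of that type cannot be told apart in any value below.

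The libraries held 17432903 to 25024094 counts (median 21409848). Values of a gene in single livers are CPM, its share of the library's counts after TMM scaling, and stand in the order of replicates 1 to 5. Adjusted p-values are from the quasi-likelihood test of edgeR with Benjamini-Hochberg adjustment over 12342 genes, and changes are log2 fold changes ± SE. Of the 37 members other than Smoc2, 36 passed the filter on low counts and were tested, and Lox was not. Pparg, the target of the shRNAs, read 16.4, 20.1, 35.9, 19.4 and 32.1 CPM in Vec livers and 7.31, 6.53, 5.96, 3.24 and 5.63 CPM in shRNA livers, a change of -2.12 ± 0.28 (adjusted p = 4.47e-05). With BBR, it read 34.8, 29.8, 28.0, 28.1 and 38.3 CPM in Vec+BBR livers and 11.4, 9.99, 21.8, 18.9 and 7.19 CPM in shRNA+BBR livers. The knockdown groups lay below their counterparts in both cases, by -1.20 ± 0.26 (adjusted p = 0.00843) with BBR, and shRNA+BBR replicates 3 and 4 stood nearest to the Vec+BBR range. Within the knockdown, Pparg was higher in shRNA+BBR than in shRNA livers, by 1.28 ± 0.28 (adjusted p = 0.00773). Over the members as a whole, shRNA+BBR replicate 4 and Vec replicates 3 and 5 stood above their groups and Vec replicate 4 below, so calls that end without 1 of these mice are named beside each gene. Lrat, the retinol-esterifying enzyme that marks quiescent stellate cells, had 3.19 to 14.1 CPM in all 20 libraries, so stellate cell RNA was present throughout.

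Levels between genes were compared on the deposited FPKM scale, which divides by transcript length, in the 5 Vec livers. The length that links a gene's counts to its FPKM was not the same in all libraries: it varied by more than 1.2 times for 12 of the 38 members, from 1.25 times for Col14a1 to 1.98 times for Col5a1, with Sparc at 1.33 and Col3a1 at 1.66 times. Decorin (Dcn), a small proteoglycan that quiescent stellate cells already make, was the highest at 70.1 ± 19.7 FPKM (SD, n = 5). Biglycan (Bgn) followed at 30.0 ± 7.36 FPKM, and the calcium-binding glycoprotein Sparc at 13.3 ± 5.20 FPKM. Of the fibrillar collagens, Col3a1 reached 7.89 ± 4.77 FPKM, Col1a2 2.57 ± 1.27 FPKM and Col1a1 1.69 ± 0.977 FPKM. Acta2, which encodes the smooth muscle actin of myofibroblasts, reached 1.45 ± 0.720 FPKM, and Timp1, an inhibitor of metalloproteinases that rises in fibrosis, 0.568 ± 0.484 FPKM. At the low end stood Fbn1 at 0.135 ± 0.0343 FPKM and Lox at 0.0378 ± 0.0280 FPKM. The FPKM ranges of the 5 mice overlapped in 34 of the 37 neighbouring pairs. Between neighbours the order is resolved only at Dcn over Bgn, Bgn over Sparc and Fbn1 over Lox. Members further apart in the order can still be apart, such as Vim at 6.37 to 10.7 FPKM and Col4a2 at 3.10 to 4.26 FPKM.

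The first question was how the genes of the matrix stood in livers given BBR, with the vector control and with the knockdown. In Vec+BBR against Vec livers, 19 of the 36 tested members passed an adjusted p of 0.05 as higher and 0 as lower, where 7.58% of all tested genes were higher and 7.88% lower. At an unadjusted p under 0.05, 26 members were higher and 0 lower, against 14.9% and 15.3% of all genes. DESeq2 called 21 members higher and 0 lower, and 2249 of all 12342 genes in either direction. The median log2 fold change was 0.78 over the 36 members and -0.0050 over all tested genes. All 5 fibril-forming collagens, all 4 basement membrane genes, both elastic fibre genes and both other matricellular genes were among the 19, and none of the 3 small proteoglycans was.

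In shRNA+BBR against shRNA livers, 13 of the 36 were higher and 0 lower, where 8.37% of all genes were higher and 7.28% lower. At an unadjusted p under 0.05, 24 members were higher and 1, Reln, was lower, against 17.2% and 16.1% of all genes. DESeq2 called 17 members higher and 1, Reln, lower, and 2372 of all 12342 genes in either direction. The median log2 fold change was 0.58 over the members and 0.0080 over all tested genes. These 2 comparisons share no mice, and 11 members were higher in both, which is 57.9% of the 19 and 84.6% of the 13. Over all tested genes, 317 were higher in both, 33.9% of the 936 higher in Vec+BBR and 30.7% of the 1033 higher in shRNA+BBR. The number in the knockdown livers changed when single mice were left out. It was 6 without shRNA+BBR replicate 3, 6 without shRNA+BBR replicate 4, 8 without shRNA replicate 4 and 8 without shRNA replicate 5. Over all tested genes the calls also fell in these fits, from 1932 with all mice to 661, 1195, 1159 and 1175.

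**Figure D1:**
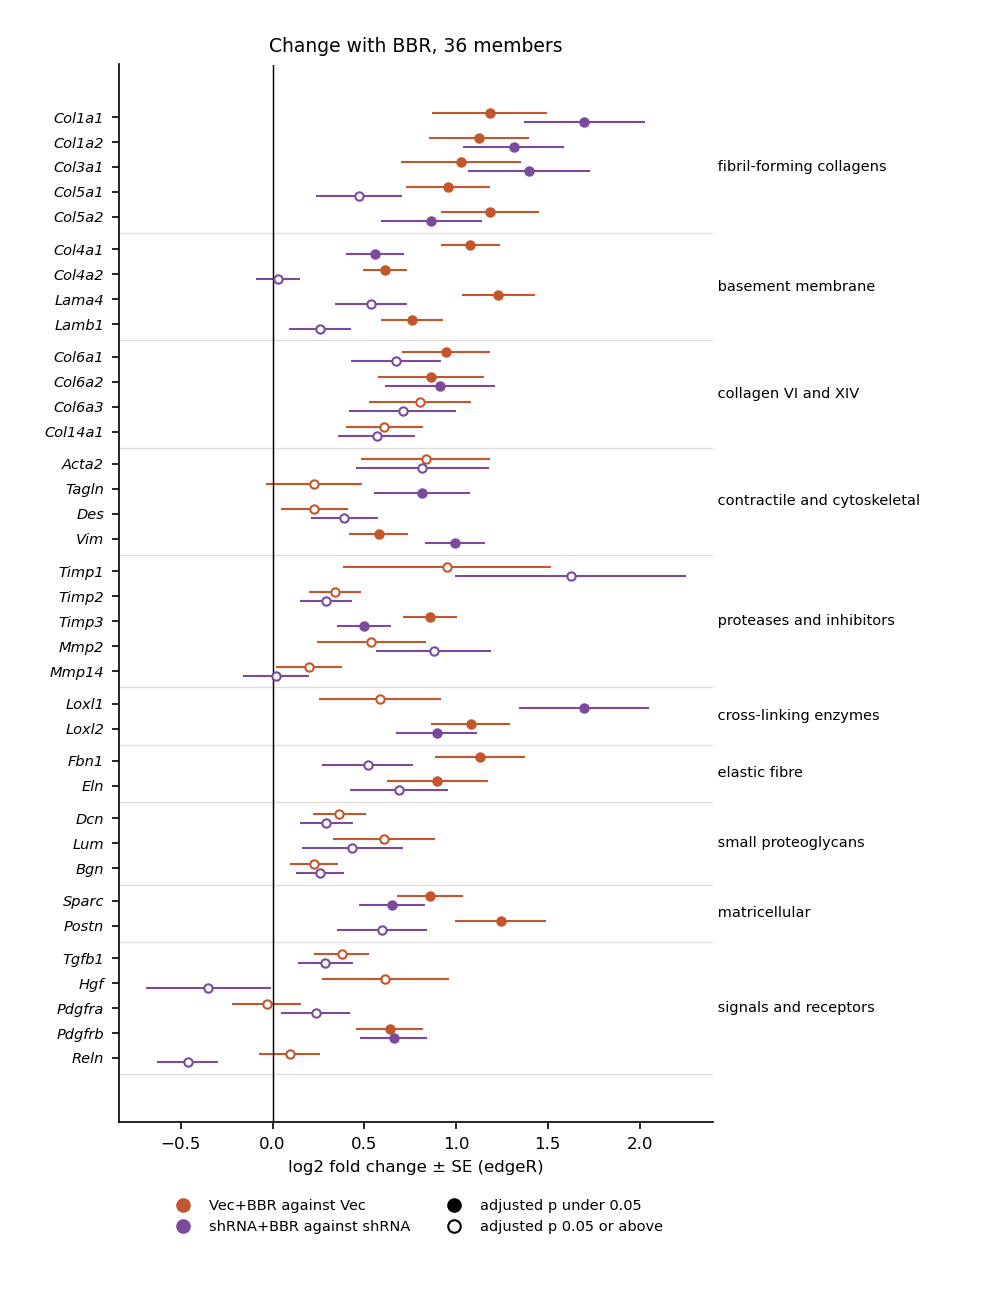
Change with BBR of the 36 tested members, grouped by role, on the log2 scale with the SE of the edgeR fit. Orange points compare Vec+BBR with Vec livers and purple points shRNA+BBR with shRNA livers (n = 5 each). Filled points have an adjusted p under 0.05, 19 in the former and 13 in the latter, all to the right of 0.

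Markers of cells that share these genes moved in part with BBR, and their part in the results was not tested. The summed level of 16 markers of quiescent stellate cells, none of them a member, was 200.4 to 298 CPM in Vec and 300.4 to 331 CPM in Vec+BBR livers, and 257 to 293 CPM in shRNA livers and 279 to 313 CPM in shRNA+BBR livers. Of the 16, 2 (12.5%) were higher and 0 lower in Vec+BBR livers by edgeR, where 7.58% of all tested genes were higher and 7.88% lower. At an unadjusted p under 0.05, 5 were higher and 1 lower there, against 14.9% and 15.3% of all genes. The median of the 16 in Vec+BBR livers was 0.14, with 5 of them negative. In shRNA+BBR livers 2 (12.5%) were higher and 1 lower, where 8.37% of all genes were higher and 7.28% lower. Rgs5, a marker of pericytes and stellate cells, was higher in Vec+BBR livers by 1.04 ± 0.17 (adjusted p = 0.00067), and Lrat in shRNA+BBR livers by 0.75 ± 0.25 (adjusted p = 0.0445). Fcna, a ficolin, was lower in shRNA+BBR livers at -0.59 ± 0.14 (adjusted p = 0.0124), and the median of the 16 there was 0.092, with 7 of them negative. The 7 portal fibroblast markers summed to 8.57 to 18.1 CPM in Vec and 17.4 to 22.0 CPM in Vec+BBR, and to 8.54 to 10.6 CPM in shRNA livers and 12.9 to 22.7 CPM in shRNA+BBR livers. Of the 5 tested, 2 (40%) were higher in Vec+BBR and 3 (60%) in shRNA+BBR livers, against 7.58% and 8.37% of all tested genes. Fbln2 was among them in both, at 0.53 ± 0.18 (adjusted p = 0.0473) and 0.95 ± 0.18 (adjusted p = 0.00445). The 8 smooth muscle markers summed to 159.7 to 209 CPM in Vec and 202 to 272 CPM in Vec+BBR livers, and 159 to 181 CPM in shRNA livers and 164 to 230.0 CPM in shRNA+BBR livers. Beside the same shares of all genes, 3 of 7 tested (42.9%) were higher in Vec+BBR livers and 2 (28.6%) in shRNA+BBR livers. In the latter these were Tpm1, a tropomyosin, at 0.58 ± 0.16 (adjusted p = 0.0241) and Flna, the filamin A gene, at 0.45 ± 0.15 (adjusted p = 0.045).

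All 5 fibril-forming collagens were higher in Vec+BBR livers, and all but Col5a1 were higher in shRNA+BBR livers. Col1a1 (ENSMUSG00000001506, chr11:94936224-94953042, plus strand in GENCODE M21 on GRCm38) encodes the α1 chain of type I collagen, the main collagen of scar tissue. It read 10.3, 6.23, 17.9, 3.45 and 15.3 CPM in Vec livers and 17.9, 25.5, 26.2, 24.1 and 27.5 CPM in Vec+BBR livers. In the knockdown, it read 4.84, 5.41, 5.23, 5.83 and 3.25 CPM in shRNA livers and 11.9, 13.8, 14.9, 28.0 and 10.95 CPM in shRNA+BBR livers. With either vector each BBR liver lay above each vehicle liver, although Vec+BBR replicate 1 and Vec replicate 3 were equal to 3 digits. The changes were 1.18 ± 0.31 (adjusted p = 0.0148) with Vec and 1.70 ± 0.33 (adjusted p = 0.00463) with shRNA. Col1a2 (ENSMUSG00000029661, chr6:4504814-4541544, plus strand), the α2 chain that pairs with it, read 12.6, 10.7, 23.1, 6.03 and 20.3 CPM in Vec and 23.5, 34.7, 33.2, 27.9 and 40.1 CPM in Vec+BBR livers. It read 10.5, 9.54, 8.74, 10.1 and 7.92 CPM in shRNA livers and 19.9, 21.3, 20.4, 39.1 and 15.6 CPM in shRNA+BBR livers. Its groups did not overlap in either comparison, with changes of 1.13 ± 0.27 (adjusted p = 0.00817) and 1.31 ± 0.28 (adjusted p = 0.00635).

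Col3a1 (ENSMUSG00000026043, chr1:45311538-45349706, plus strand) encodes the only chain of type III collagen, the collagen of reticular fibres. It read 27.6, 19.9, 56.2, 10.6 and 47.8 CPM in Vec and 58.8, 68.2, 64.5, 65.3 and 74.2 CPM in Vec+BBR livers. It read 25.3, 17.3, 22.4, 22.0 and 11.001 CPM in shRNA livers and 42.1, 38.3, 55.4, 86.9 and 35.2 CPM in shRNA+BBR livers. Vec livers spread over a wide range and shRNA livers stayed in the lower part of it, and neither reached the BBR livers of the same vector. The changes were 1.03 ± 0.33 (adjusted p = 0.0379) with Vec and 1.40 ± 0.33 (adjusted p = 0.0117) with shRNA. The former had an adjusted p between 0.0602 and 0.102 without Vec replicate 1, 2 or 4 or Vec+BBR replicate 2, 3, 4 or 5, and in a fit of those groups alone.

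Type V collagen nucleates fibrils of types I and III. Its Col5a1 chain read 4.01, 3.41, 6.08, 2.74 and 5.93 CPM in Vec and 7.01, 8.73, 8.56, 9.02 and 9.93 CPM in Vec+BBR livers, without overlap. In the knockdown it read 4.30, 3.29, 3.26, 3.15 and 2.88 CPM in shRNA livers and 5.19, 3.27, 4.17, 7.67 and 3.08 CPM in shRNA+BBR livers, where only replicates 1 and 4 stood above all shRNA livers. The changes were 0.96 ± 0.23 (adjusted p = 0.00772) and 0.47 ± 0.24 (adjusted p = 0.167). The Col5a2 chain read 2.25, 1.29, 2.84, 1.06 and 3.39 CPM in Vec and 3.63, 5.96, 4.99, 5.00 and 5.37 CPM in Vec+BBR livers. It read 2.10, 1.56, 1.49, 1.66 and 1.42 CPM in shRNA livers and 3.05, 2.24, 2.84, 4.93 and 1.96 CPM in shRNA+BBR livers. Only the lowest shRNA+BBR liver lay within the shRNA range, and the changes were 1.19 ± 0.27 (adjusted p = 0.00544) and 0.87 ± 0.28 (adjusted p = 0.0399). In the knockdown pair Col5a2 had an adjusted p between 0.0519 and 0.128 without shRNA replicate 2, 3, 4 or 5 or shRNA+BBR replicate 1, 3 or 4.

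**Figure D2:**
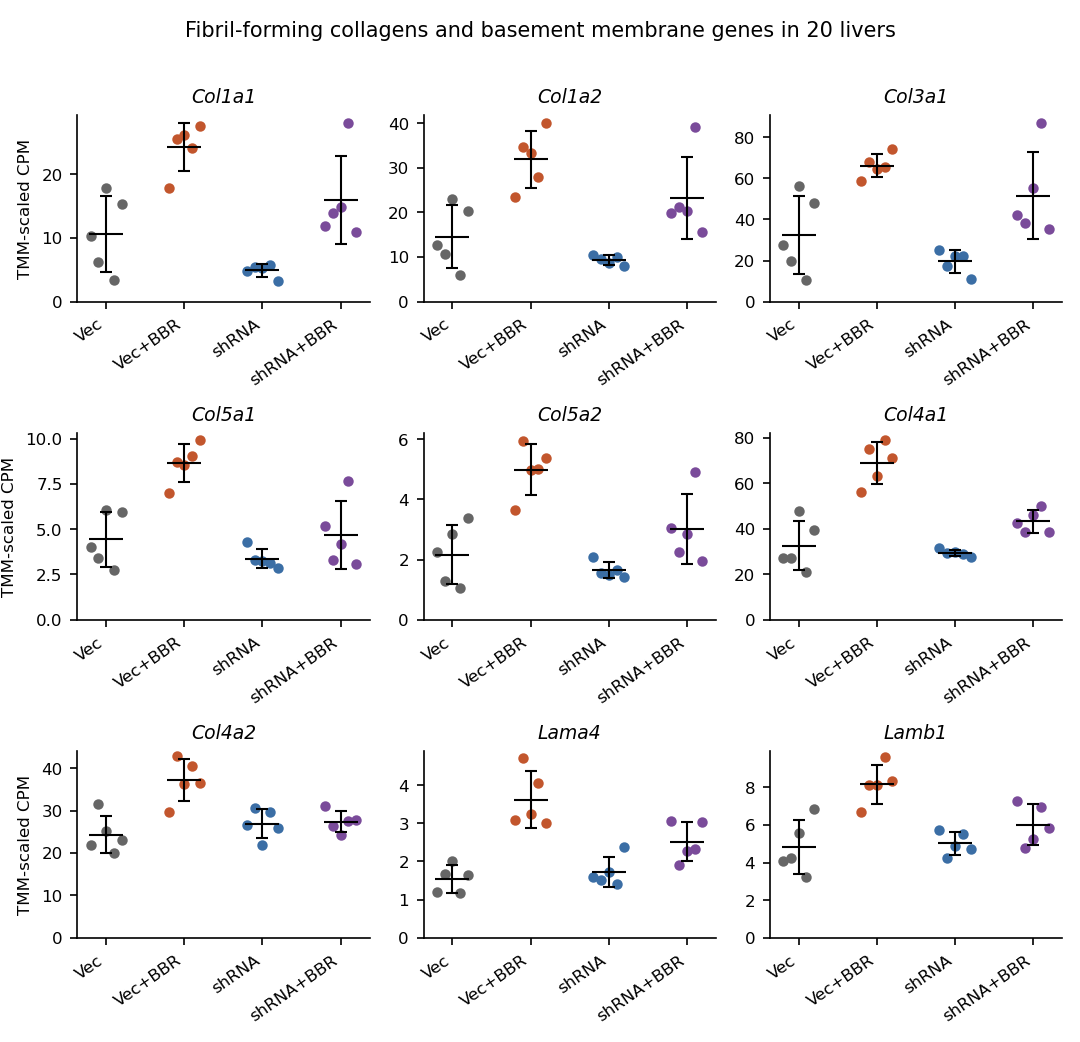
TMM-scaled CPM of the 5 fibril-forming collagens and the 4 basement membrane genes in each of the 20 livers, by group, with dots in the order of replicates 1 to 5 and the mean ± SD of 5 mice in black. Vec+BBR livers read 17.9 to 27.5 CPM for Col1a1 and 56.1 to 79.0 CPM for Col4a1, above all Vec livers, and shRNA+BBR replicate 4 is the highest dot of its group for Col4a1 and all 5 fibril-forming collagens.

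The bases before the start site are given for 3 of the genes that were higher with BBR, as the stretch to which general transcription factors bind. RefSeq promoter windows on GRCm38.p6 were matched for 24 of the 38 members, 27 windows in all, and 14 of these had no annotated exon in the 150 bases before the start. Each line below is the 150 bases before the start site, 5′ to 3′ on the strand of the gene. Capitals mark TATAAA, the letters of the TATA box, or CCAAT, the box bound by NF-Y, and their reverse complements.
Col3a1 (chr1:45311388-45311537, plus strand): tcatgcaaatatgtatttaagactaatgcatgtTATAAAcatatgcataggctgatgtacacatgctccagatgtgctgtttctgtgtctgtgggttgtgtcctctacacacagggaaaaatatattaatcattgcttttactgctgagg
Col5a1 (chr2:27886275-27886424, plus strand): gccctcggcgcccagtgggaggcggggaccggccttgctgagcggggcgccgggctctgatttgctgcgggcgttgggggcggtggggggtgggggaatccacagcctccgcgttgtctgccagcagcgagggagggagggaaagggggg
Postn (chr3:54360957-54361106, plus strand): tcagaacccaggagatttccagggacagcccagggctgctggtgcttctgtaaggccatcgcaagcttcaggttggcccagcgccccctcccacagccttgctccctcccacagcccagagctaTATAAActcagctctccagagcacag
The letters TATAAA stood at -117 before the start of Col3a1 and at -26 before the start shown for Postn, and neither motif was found in the Col5a1 stretch. Postn had another window without an annotated exon, at chr3:54359117-54359266, in which neither motif was found. Over the 250 bases before the start, on both strands, CCAAT was found in 8 of the 27 windows of members and in 33.8% of 32851 promoters. TATAAA was found in 3 of the 27 and in 12.4% of all promoters, and the repeat of AGGTCA with any 1 base between the copies, which PPARs bind with RXR, in 0 of the 27 and in 0.0335% of all promoters. These are matches of letters alone and say nothing of binding.

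All 4 basement membrane genes were higher with BBR in Vec livers, and 1 of them, Col4a1, was called in knockdown livers. Col4a1 (ENSMUSG00000031502, chr8:11198423-11312826, minus strand) and Col4a2 (ENSMUSG00000031503, chr8:11312805-11449287, plus strand) encode the chains of type IV collagen, the network collagen of basement membranes, and lie head to head with an overlap of 22 bases. Col4a1 read 27.3, 27.1, 48.0, 21.1 and 39.5 CPM in Vec and 56.1, 75.1, 63.4, 79.0 and 70.9 CPM in Vec+BBR livers. It read 31.4, 29.5, 29.6, 28.9 and 27.6 CPM in shRNA livers and 42.7, 38.7, 45.8, 50.2 and 38.8 CPM in shRNA+BBR livers. Both pairs of groups were apart, and the changes were 1.08 ± 0.16 (adjusted p = 0.000261) with Vec and 0.56 ± 0.16 (adjusted p = 0.0246) with shRNA. The latter had an adjusted p between 0.0509 and 0.0643 without shRNA replicate 4 or 5 or shRNA+BBR replicate 3 or 4.

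Col4a2 read 21.9, 31.5, 25.3, 20.03 and 23.0 CPM in Vec and 29.8, 42.8, 36.2, 40.5 and 36.4 CPM in Vec+BBR livers, with Vec replicate 2 above the lowest Vec+BBR liver. It read 26.6, 30.6, 21.9, 29.6 and 25.9 CPM in shRNA livers and 31.1, 26.4, 24.3, 27.6 and 27.7 CPM in shRNA+BBR livers, which lay within one another. The changes were 0.61 ± 0.12 (adjusted p = 0.00201) with Vec and 0.028 ± 0.12 (adjusted p = 0.889) with shRNA, the latter with a 95% interval of -0.22 to 0.28.

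The laminin α4 chain gene Lama4, expressed in vessel walls, read 1.202, 1.67, 2.01, 1.17 and 1.65 CPM in Vec and 3.08, 4.70, 3.23, 4.06 and 3.01 CPM in Vec+BBR livers, without overlap. It read 1.60, 1.51, 1.73, 1.40 and 2.38 CPM in shRNA livers and 3.05, 1.91, 2.27, 2.33 and 3.03 CPM in shRNA+BBR livers, where shRNA replicate 5 reached into the BBR range. Its changes were 1.23 ± 0.20 (adjusted p = 0.000519) and 0.54 ± 0.20 (adjusted p = 0.0641). Lamb1, the laminin β1 chain, read 4.11, 4.24, 5.59, 3.24 and 6.88 CPM in Vec and 6.67, 8.15, 8.13, 9.60 and 8.33 CPM in Vec+BBR livers. It read 5.76, 4.24, 4.87, 5.52 and 4.71 CPM in shRNA livers and 7.27, 4.77, 5.26, 6.98 and 5.82 CPM in shRNA+BBR livers. Vec replicate 5 stood just above the lowest Vec+BBR liver, and the changes were 0.76 ± 0.17 (adjusted p = 0.00509) and 0.26 ± 0.17 (adjusted p = 0.29).

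Type VI collagen forms beaded microfibrils from 3 chains, and type XIV collagen sits on the surface of fibrils. Col6a1 read 7.97, 5.14, 9.27, 4.72 and 10.4 CPM in Vec and 8.34, 15.004, 17.2, 13.8 and 18.3 CPM in Vec+BBR livers, with Vec+BBR replicate 1 inside the Vec range. It read 7.31, 6.19, 4.95, 5.91 and 5.54 CPM in shRNA livers and 8.72, 9.45, 7.01, 15.4 and 6.99 CPM in shRNA+BBR livers, where shRNA replicate 1 stood above the lower BBR livers. The changes were 0.94 ± 0.24 (adjusted p = 0.0115) and 0.67 ± 0.24 (adjusted p = 0.0639). Col6a2 read 4.16, 3.47, 6.67, 2.33 and 7.72 CPM in Vec and 6.16, 8.69, 8.85, 9.33 and 11.6 CPM in Vec+BBR livers. It read 4.61, 3.18, 3.14, 2.85 and 2.42 CPM in shRNA livers and 5.67, 5.35, 5.45, 10.6 and 3.37 CPM in shRNA+BBR livers. Both pairs of groups overlapped at 1 or more mice, and the changes were 0.86 ± 0.29 (adjusted p = 0.0473) and 0.91 ± 0.30 (adjusted p = 0.0437). With Vec, Col6a2 had an adjusted p between 0.0518 and 0.12 without Vec replicate 1, 2 or 4 or Vec+BBR replicate 2, 3, 4 or 5, and in a fit of those groups alone and with no filter on low counts. With shRNA, it had an adjusted p between 0.051 and 0.148 without shRNA replicate 2, 3, 4 or 5 or shRNA+BBR replicate 2, 3 or 4, and with no filter on low counts. Col6a3 and Col14a1 did not pass in either comparison by edgeR, with changes of 0.80 ± 0.28 (adjusted p = 0.0538) and 0.61 ± 0.21 (adjusted p = 0.0526) in Vec livers, although DESeq2 called both there. In shRNA livers they were 0.71 ± 0.29 (adjusted p = 0.0951) and 0.57 ± 0.21 (adjusted p = 0.068), where DESeq2 called Col14a1 and also Col6a1.

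Among the contractile and cytoskeletal genes, Vim was called in both comparisons, Tagln in 1 and Acta2 and Des in neither. Vim encodes vimentin, the intermediate filament of mesenchymal cells. It read 20.6, 16.004, 25.1, 14.2 and 22.7 CPM in Vec and 27.3, 29.2, 31.0, 27.6 and 32.5 CPM in Vec+BBR livers. It read 14.7, 14.7, 18.4, 15.6 and 12.4 CPM in shRNA livers and 28.1, 32.2, 30.1, 40.8 and 19.8 CPM in shRNA+BBR livers. Neither pair of groups overlapped, and the changes were 0.58 ± 0.16 (adjusted p = 0.019) and 1.00 ± 0.16 (adjusted p = 0.00226). With Vec, Vim had an adjusted p between 0.0504 and 0.0565 without Vec replicate 2 or 4.

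Acta2, the usual marker of stellate cell activation, read 2.10, 3.92, 3.24, 0.811 and 4.24 CPM in Vec and 6.24, 4.48, 5.61, 5.80 and 3.30 CPM in Vec+BBR livers. It read 2.47, 1.62, 1.25, 2.10 and 3.08 CPM in shRNA livers and 2.71, 4.43, 2.46, 6.80 and 2.10 CPM in shRNA+BBR livers. The ranges overlapped in both comparisons, with changes of 0.83 ± 0.35 (adjusted p = 0.114) and 0.81 ± 0.36 (adjusted p = 0.121) and 95% intervals of 0.099 to 1.57 and 0.062 to 1.57. Tagln encodes transgelin, an actin-binding protein of smooth muscle. It read 7.06, 6.43, 8.97, 3.45 and 9.84 CPM in Vec and 10.4, 8.87, 7.94, 7.32 and 7.34 CPM in Vec+BBR livers. It read 6.53, 5.30, 4.35, 5.30 and 3.79 CPM in shRNA livers and 7.32, 8.87, 9.33, 14.5 and 4.30 CPM in shRNA+BBR livers. All shRNA+BBR livers but replicate 5 stood above the shRNA range, and the changes were 0.23 ± 0.26 (adjusted p = 0.605) and 0.81 ± 0.26 (adjusted p = 0.0413). The call of Tagln had an adjusted p between 0.067 and 0.135 without shRNA replicate 2, 3, 4 or 5 or shRNA+BBR replicate 2, 3 or 4. Of the exonic bases of Tagln, 67.9% overlap genes on the opposite strand, and the library kit does not keep strand, so its reads cannot be separated from theirs. Des, the desmin gene used to mark stellate cells in rodents, changed by 0.23 ± 0.18 (adjusted p = 0.433) and 0.39 ± 0.18 (adjusted p = 0.14).

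Metalloproteinases degrade matrix and the Timp proteins inhibit them. Timp3, whose product binds to the matrix itself, was called in both comparisons, and Timp1, Timp2, Mmp2 and Mmp14 in neither by edgeR, although DESeq2 called Timp1 and Mmp2 higher in shRNA+BBR than in shRNA livers. Timp3 read 25.5, 21.9, 34.3, 19.6 and 34.2 CPM in Vec and 43.4, 54.7, 46.5, 49.8 and 51.0 CPM in Vec+BBR livers, without overlap. It read 37.2, 22.8, 28.7, 26.1 and 26.0 CPM in shRNA livers and 35.6, 37.6, 39.3, 48.8 and 37.8 CPM in shRNA+BBR livers, where shRNA replicate 1 stood above the lowest shRNA+BBR liver. The changes were 0.86 ± 0.15 (adjusted p = 0.000941) and 0.50 ± 0.15 (adjusted p = 0.0289). With shRNA, Timp3 had an adjusted p between 0.0627 and 0.0788 without shRNA replicate 2, 4 or 5 or shRNA+BBR replicate 3 or 4. Syn3 overlaps 21.3% of the exonic bases of Timp3 on the opposite strand.

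Timp1, which fibrotic livers express strongly, read 0.601, 0.321, 1.23, 0.0507 and 0.377 CPM in Vec and 0.855, 0.941, 0.476, 1.52 and 1.27 CPM in Vec+BBR livers. It read 0.183, 0.502, 0.0403, 0.219 and 0.375 CPM in shRNA livers and 0.242, 0.704, 1.18, 1.60 and 0.245 CPM in shRNA+BBR livers. These levels rest on 1 to 35 counts per library, and the lowest are under the floor of 3 counts, which corresponds to 0.120 to 0.172 CPM. The changes of Timp1 were 0.95 ± 0.57 (adjusted p = 0.273) and 1.62 ± 0.63 (adjusted p = 0.0797). Timp2 changed by 0.34 ± 0.14 (adjusted p = 0.113) and 0.29 ± 0.14 (adjusted p = 0.163). Mmp2, a gelatinase, changed by 0.54 ± 0.30 (adjusted p = 0.229) and 0.88 ± 0.32 (adjusted p = 0.0618), and Mmp14, the membrane protease that activates its product, by 0.20 ± 0.18 (adjusted p = 0.502) and 0.019 ± 0.18 (adjusted p = 0.953).

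The lysyl oxidase family cross-links collagen and elastin. Loxl2 read 3.21, 2.25, 3.68, 2.23 and 4.00 CPM in Vec and 4.28, 6.81, 7.14, 8.03 and 6.45 CPM in Vec+BBR livers. It read 2.65, 2.23, 2.38, 1.66 and 2.42 CPM in shRNA livers and 3.64, 2.73, 5.40, 5.75 and 3.62 CPM in shRNA+BBR livers. Neither pair of groups overlapped, with changes of 1.08 ± 0.21 (adjusted p = 0.00227) and 0.90 ± 0.22 (adjusted p = 0.0139). Loxl1, which acts in elastic fibres, read 1.65, 1.35, 1.77, 0.507 and 1.08 CPM in Vec and 2.01, 1.84, 1.71, 1.74 and 2.26 CPM in Vec+BBR livers. It read 0.640, 1.23, 0.483, 0.482 and 0.5001 CPM in shRNA livers and 1.79, 2.36, 1.94, 3.65 and 0.831 CPM in shRNA+BBR livers. Only shRNA replicate 2 and shRNA+BBR replicate 5 crossed over in the knockdown pair, and the changes were 0.59 ± 0.33 (adjusted p = 0.249) and 1.70 ± 0.35 (adjusted p = 0.00619). Lox itself had 1 to 17 counts per library and was not tested, with 0.0507 to 0.330 CPM in Vec and 0.257 to 0.809 CPM in Vec+BBR livers, and 0.0403 to 0.208 CPM in shRNA livers and 0.0489 to 0.291 CPM in shRNA+BBR livers.

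Elastic fibres are built of elastin on microfibrils of fibrillin. Fbn1, the fibrillin-1 gene, read 1.40, 0.964, 1.57, 1.37 and 1.74 CPM in Vec and 1.75, 4.52, 3.19, 2.77 and 3.39 CPM in Vec+BBR livers, where Vec+BBR replicate 1 stood only just above the highest Vec liver. It read 1.92, 1.51, 1.21, 1.49 and 1.33 CPM in shRNA livers and 2.57, 1.202, 1.89, 2.92 and 2.10 CPM in shRNA+BBR livers. In the knockdown pair shRNA+BBR replicates 2 and 3 lay within or below the shRNA range, and the changes were 1.13 ± 0.25 (adjusted p = 0.00415) and 0.52 ± 0.25 (adjusted p = 0.147). Gm9913 overlaps 20.1% of the exonic bases of Fbn1 on the opposite strand. Eln, the elastin gene, read 1.10, 0.964, 2.01, 0.862 and 2.12 CPM in Vec and 2.74, 1.97, 3.19, 2.37 and 3.06 CPM in Vec+BBR livers. It read 1.69, 1.95, 1.21, 1.75 and 1.96 CPM in shRNA livers and 2.33, 3.19, 2.51, 4.29 and 1.42 CPM in shRNA+BBR livers. Its ranges overlapped in both pairs, with changes of 0.90 ± 0.28 (adjusted p = 0.0327) and 0.69 ± 0.27 (adjusted p = 0.0827). The call of Eln with Vec had an adjusted p between 0.0536 and 0.0909 without Vec replicate 1, 2 or 4 or Vec+BBR replicate 3 or 5, and in a fit of those groups alone.

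The small proteoglycans Dcn, Lum and Bgn bind collagen fibrils, and Dcn and Bgn are the most abundant members. None of the 3 passed in either comparison by edgeR or by DESeq2, and at an unadjusted p under 0.05 Dcn and Lum did so in Vec livers. Dcn ranged over 89.5 to 158 CPM in Vec and 153 to 175 CPM in Vec+BBR livers, and 119 to 159 CPM in shRNA livers and 155 to 200.1 CPM in shRNA+BBR livers. Its changes of 0.36 ± 0.14 (adjusted p = 0.0914) and 0.29 ± 0.14 (adjusted p = 0.161) had 95% intervals of 0.063 to 0.67 and -0.0077 to 0.59. Bgn changed by 0.23 ± 0.13 (adjusted p = 0.253) and 0.26 ± 0.13 (adjusted p = 0.166), and Lum by 0.61 ± 0.28 (adjusted p = 0.141) and 0.44 ± 0.28 (adjusted p = 0.274).

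Matricellular proteins bind matrix and cell receptors without being structural parts of the matrix. Sparc, which binds collagen, read 23.2, 21.8, 36.04, 15.7 and 36.6 CPM in Vec and 39.1, 53.6, 47.8, 51.5 and 49.9 CPM in Vec+BBR livers. It read 26.4, 21.2, 26.7, 23.5 and 20.9 CPM in shRNA livers and 38.3, 31.1, 38.1, 48.3 and 30.9 CPM in shRNA+BBR livers. Neither pair overlapped, with changes of 0.86 ± 0.18 (adjusted p = 0.00331) and 0.65 ± 0.18 (adjusted p = 0.0217). In the knockdown pair Sparc had an adjusted p between 0.0531 and 0.0614 without shRNA replicate 5 or shRNA+BBR replicate 3 or 4. Postn, the periostin gene, read 3.11, 4.63, 7.99, 4.11 and 8.01 CPM in Vec and 9.15, 14.3, 13.4, 14.997 and 14.4 CPM in Vec+BBR livers, without overlap. It read 9.55, 5.69, 7.21, 8.37 and 5.29 CPM in shRNA livers and 7.80, 8.45, 13.9, 15.1 and 9.49 CPM in shRNA+BBR livers, where shRNA replicates 1 and 4 reached into the BBR range. The changes were 1.24 ± 0.25 (adjusted p = 0.00235) and 0.60 ± 0.24 (adjusted p = 0.0939).

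Of the signals and receptors, edgeR called only Pdgfrb with BBR, in both comparisons, and DESeq2 also called Reln lower in shRNA+BBR livers. Pdgfrb encodes the PDGF receptor β of stellate cells and pericytes. It read 7.77, 5.01, 7.40, 4.31 and 6.78 CPM in Vec and 7.99, 9.72, 8.99, 11.7 and 10.4 CPM in Vec+BBR livers, without overlap. It read 4.84, 7.25, 5.56, 6.13 and 4.17 CPM in shRNA livers and 9.11, 7.13, 9.71, 11.5 and 6.55 CPM in shRNA+BBR livers, where shRNA replicate 2 stood above the lower BBR livers. The changes were 0.64 ± 0.18 (adjusted p = 0.0215) and 0.66 ± 0.18 (adjusted p = 0.0218). With Vec, Pdgfrb had an adjusted p between 0.0562 and 0.0647 without Vec replicate 2 or 4 or Vec+BBR replicate 4. With shRNA, it had an adjusted p between 0.0526 and 0.0626 without shRNA replicate 1 or 5 or shRNA+BBR replicate 3 or 4. Pdgfra, the α receptor, changed by -0.032 ± 0.19 (adjusted p = 0.933) and 0.23 ± 0.19 (adjusted p = 0.393). Tgfb1, the main fibrogenic signal, changed by 0.38 ± 0.15 (adjusted p = 0.0973) and 0.29 ± 0.15 (adjusted p = 0.189). Hgf, which stellate cells make for hepatocytes, changed by 0.62 ± 0.35 (adjusted p = 0.244) and -0.35 ± 0.34 (adjusted p = 0.491). Reln, the reelin gene that marks stellate cells, changed by 0.093 ± 0.17 (adjusted p = 0.752) and -0.46 ± 0.17 (adjusted p = 0.0601).

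The next question was how these genes stood with the knockdown, without BBR and with it. In shRNA against Vec livers, 0 members were higher and 1, Col1a1, was lower, where 5.28% of all tested genes were higher and 7.91% lower. At an unadjusted p under 0.05, 1 member was higher and 7 were lower, against 12.7% and 15.8% of all genes. DESeq2 called 0 members higher and 2 lower, Col1a1 and Mmp2, and 1959 of all 12342 genes in either direction. Col1a1 fell by 1.12 on the log2 scale (adjusted p = 0.0303), from 10.6 ± 6.01 CPM in Vec to 4.91 ± 0.994 CPM in shRNA livers (mean ± SD, n = 5). The 5 shRNA livers all lay within or below the lower part of the Vec range. The call had an adjusted p between 0.0502 and 0.1 without Vec replicate 3 or 5 or shRNA replicate 1, 3 or 5, and in a fit of those groups alone. The count itself was 0 without Vec replicate 3, Vec replicate 5, shRNA replicate 1 or shRNA replicate 3, 2 without shRNA replicate 2 and 7 without Vec replicate 4. Over all tested genes, 1628 were called with all mice. In the same order of mice left out, 1292, 1554, 1242, 1318, 1348 and 2284 were called. Other fibrillar collagens did not pass, with changes of -0.64 ± 0.28 (adjusted p = 0.129) for Col1a2 and -0.73 ± 0.33 (adjusted p = 0.15) for Col3a1. Flna was also lower there, by -0.46 ± 0.15 (adjusted p = 0.0448), the only call among the 7 tested smooth muscle markers. Reln, the only member higher at an unadjusted p under 0.05, changed by 0.35 ± 0.17 (adjusted p = 0.161).

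In shRNA+BBR against Vec+BBR livers, 0 members were higher and 3 were lower, where 3.31% of all tested genes were higher and 4.82% lower. At an unadjusted p under 0.05, 0 were higher and 11 lower, against 11.4% and 13.3% of all genes. DESeq2 called 0 members higher and 5 lower, Loxl2 and Col6a3 beside the same 3, and 1418 of all 12342 genes in either direction. Col4a1 changed by -0.67 ± 0.16 (adjusted p = 0.0123), and each shRNA+BBR liver lay below each Vec+BBR liver. Col5a1 changed by -0.89 ± 0.23 (adjusted p = 0.0192), with shRNA+BBR replicate 4 inside the Vec+BBR range. Its call had an adjusted p between 0.051 and 0.0636 without shRNA+BBR replicate 2 or 5. Col4a2 changed by -0.44 ± 0.12 (adjusted p = 0.0261), with shRNA+BBR replicate 1 inside the Vec+BBR range. That call had an adjusted p between 0.0671 and 0.0851 without Vec+BBR replicate 2 or 4 or shRNA+BBR replicate 2 or 3. Some cell type markers were lower in this comparison too, and their part in these values was not tested. Of the 7 tested smooth muscle markers 2 were lower and all had negative changes (median -0.27). Flna changed by -0.59 ± 0.15 (adjusted p = 0.0167) and Cald1, the caldesmon gene, by -0.45 ± 0.13 (adjusted p = 0.0294). Of the 16 markers of quiescent stellate cells only 1 was lower, Rgs5 at -0.62 ± 0.17 (adjusted p = 0.0272). Of these 16, 7 had positive and 9 negative changes (median -0.024). The count of members was 1 without shRNA+BBR replicate 2, 6 without Vec+BBR replicate 1 and 7 without shRNA+BBR replicate 4. Over all tested genes, 1004 were called with all mice, and 538, 1129 and 1046 in these fits. Col1a1, Col1a2 and Col3a1 did not pass, with changes of -0.60 ± 0.31 (adjusted p = 0.23), -0.45 ± 0.26 (adjusted p = 0.302) and -0.36 ± 0.32 (adjusted p = 0.527). The median log2 fold change of the 36 members was -0.18 in shRNA against Vec and -0.35 in shRNA+BBR against Vec+BBR livers, and that of all tested genes was -0.0092 and -0.0041. The BBR and the knockdown comparisons draw on the same 4 groups of mice, so their values stand side by side and are not independent.

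**Figure D3:**
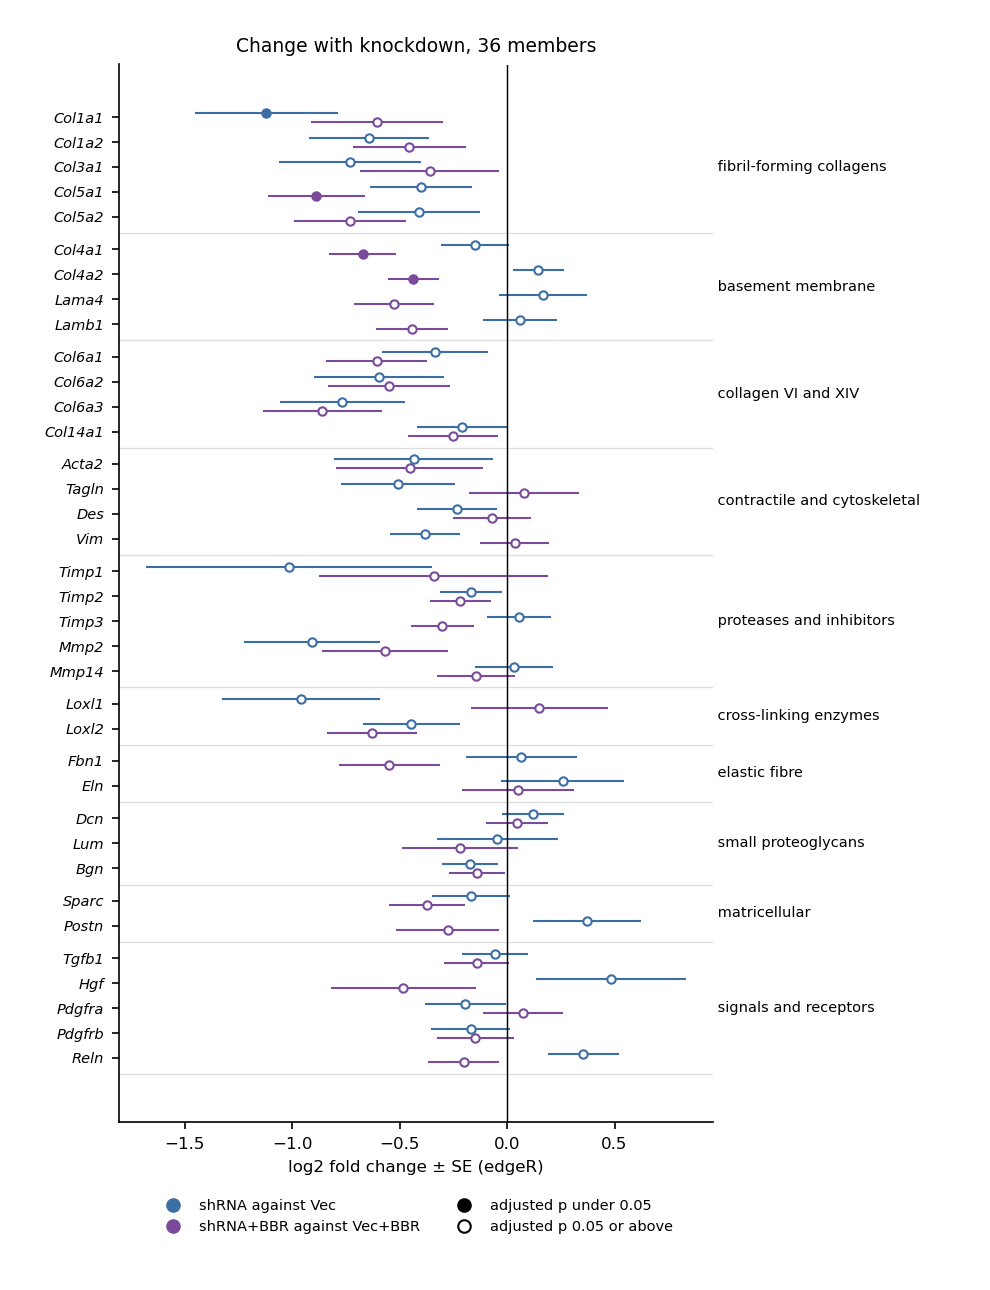
Change with knockdown of the 36 tested members, grouped by role, on the log2 scale with the SE of the edgeR fit. Blue points compare shRNA with Vec livers and purple points shRNA+BBR with Vec+BBR livers (n = 5 each). Filled points have an adjusted p under 0.05, namely Col1a1 in the former and Col5a1, Col4a1 and Col4a2 in the latter, all to the left of 0.

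Whether BBR acted differently with and without the knockdown was tested as the difference between both BBR effects. By edgeR 0 of the 36 members passed, where 0.0729% of all tested genes were higher and 0.0729% lower. At an unadjusted p under 0.05, 1 member was higher and 5 lower, against 9.79% and 8.69% of all genes. DESeq2 called 1 member, Col4a2, lower, and 330 of all 12342 genes in either direction. The 4 basement membrane genes were all among the 5 lower ones, with differences of -0.58 ± 0.17 (adjusted p = 0.105) for Col4a2, -0.69 ± 0.28 (adjusted p = 0.198) for Lama4, -0.52 ± 0.22 (adjusted p = 0.222) for Col4a1 and -0.50 ± 0.24 (adjusted p = 0.268) for Lamb1. Reln was the other one, at -0.56 ± 0.23 (adjusted p = 0.217), and Loxl1 the one in the other direction, at 1.11 ± 0.49 (adjusted p = 0.232). For Col1a1 the difference was 0.52 ± 0.45 (adjusted p = 0.545), with a 95% interval of -0.42 to 1.45, and for Col1a2 it was 0.19 ± 0.38 (adjusted p = 0.818), with an interval of -0.61 to 0.99. These intervals leave room for a difference of either sign. Of the 6 endothelial markers, 0 passed by edgeR and 3 were lower at an unadjusted p under 0.05. All 6 had negative differences (median -0.35), and their part in the values of the basement membrane genes was not tested.

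Smoc2 (ENSMUSG00000023886, chr17:14279506-14404790, plus strand), a secreted calcium-binding relative of Sparc, was chosen for its rise with the knockdown. It read 3.06, 2.64, 2.75, 1.93 and 2.87 CPM in Vec and 45.9, 31.6, 36.4, 59.0 and 38.5 CPM in shRNA livers. With BBR it read 2.65, 3.90, 5.99, 4.28 and 3.81 CPM in Vec+BBR and 24.8, 16.8, 6.39, 17.8 and 21.2 CPM in shRNA+BBR livers. The shRNA livers were the highest, the shRNA+BBR livers lay between them and the others without overlap, and the Vec and Vec+BBR livers overlapped at Vec+BBR replicate 1. The levels were 2.65 ± 0.432 CPM in Vec and 4.13 ± 1.21 CPM in Vec+BBR livers, and 42.3 ± 10.6 CPM in shRNA livers and 17.4 ± 6.91 CPM in shRNA+BBR livers (mean ± SD over 5 mice). Their fitted log2 differences were 3.99 ± 0.29 for shRNA against Vec and 2.08 ± 0.27 for shRNA+BBR against Vec+BBR livers. For BBR they were 0.63 ± 0.30 with Vec and -1.28 ± 0.25 with shRNA. Among the shRNA+BBR livers, replicate 3 had the lowest Smoc2 at 6.39 CPM and the highest Pparg at 21.8 CPM, whereas replicate 4, with the next highest Pparg at 18.9 CPM, had 17.8 CPM of Smoc2. Among the shRNA livers, replicate 4 had the highest Smoc2 at 59.0 CPM and the lowest Pparg at 3.24 CPM. Of the other matricellular genes, Sparc ranged over 15.7 to 36.6 CPM in Vec and 20.9 to 26.7 CPM in shRNA livers, and Postn over 3.11 to 8.01 and 5.29 to 9.55 CPM.

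**Figure D4:**
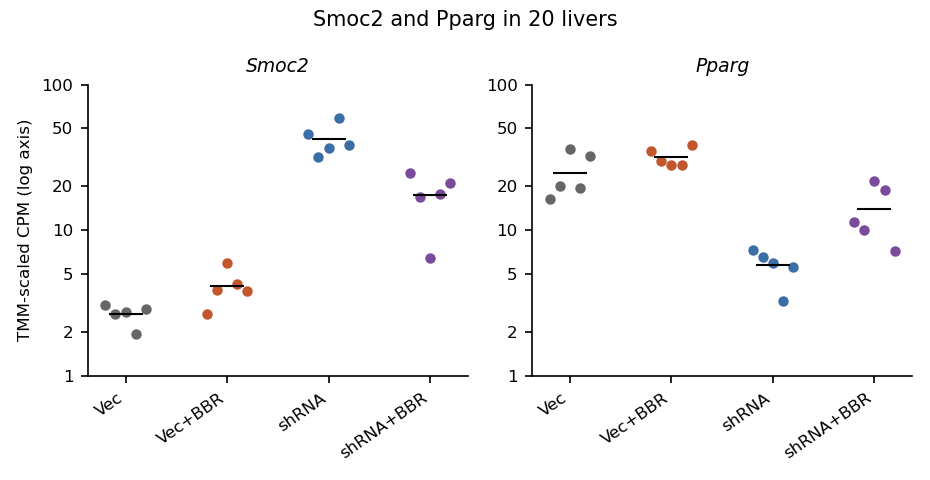
TMM-scaled CPM of Smoc2 and Pparg in each of the 20 livers on a log axis, by group, with dots in the order of replicates 1 to 5 and bars at the group means. Smoc2 lies at 31.6 to 59.0 CPM in shRNA livers and at 1.93 to 3.06 CPM in Vec livers, and Pparg lies lower in the knockdown groups than in their counterparts.

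Chains of 1 collagen are translated for the same trimer, and their transcripts were compared as FPKM ratios. Ratios of counts stand beside them for types IV and V, since the length behind the FPKM differed between libraries by 1.59 times for Col4a1 and 1.98 times for Col5a1. The ratio of Col1a1 to Col1a2 was 0.630 ± 0.102 in Vec, 0.692 ± 0.0587 in Vec+BBR, 0.472 ± 0.0743 in shRNA and 0.609 ± 0.0582 in shRNA+BBR livers (SD, n = 5). The shRNA livers, at 0.370 to 0.540, lay below all Vec+BBR livers, at 0.620 to 0.778. For Col4a1 to Col4a2 it was 1.88 ± 0.469 in Vec, 2.68 ± 0.229 in Vec+BBR, 1.49 ± 0.345 in shRNA and 2.17 ± 0.603 in shRNA+BBR livers. In counts, it was 1.35 ± 0.439 in Vec, 1.86 ± 0.101 in Vec+BBR, 1.11 ± 0.162 in shRNA and 1.59 ± 0.244 in shRNA+BBR livers. The Vec+BBR livers lay above all Vec livers in the FPKM ratio but overlapped them in the count ratio, at 1.75 to 1.95 against 0.861 to 1.90. The ratio of Col5a1 to Col5a2 was 4.80 ± 1.08 in Vec and 2.92 ± 0.474 in Vec+BBR livers, and 3.68 ± 0.630 and 2.94 ± 0.381 in shRNA and shRNA+BBR livers. In counts, it was 2.18 ± 0.425 in Vec and 1.75 ± 0.178 in Vec+BBR livers, whose ranges overlapped. In the knockdown the count ratio was 2.05 ± 0.109 in shRNA and 1.55 ± 0.0964 in shRNA+BBR livers, which did not overlap. The FPKM ratios of these livers did overlap, at 2.99 to 4.46 and 2.52 to 3.38. Col6a1 to Col6a2 stayed between group means of 1.59 and 1.89. No test was run on these ratios.

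The members also varied together between mice of 1 group. After the group means were removed, the Pearson correlation of log2 CPM over the 20 mice had a median of 0.50 over the 630 pairs of the 36 tested members, and 586 pairs were above 0. The points share the library, its depth and 4 estimated means, so these are descriptions. No correlation among other genes stands beside them, so they do not show whether the members varied together more than other genes did. The 10 pairs of fibril-forming collagens had a median of 0.90 and a lowest value of 0.83, and the highest of all pairs was Col1a1 with Col1a2 at 0.96. Col4a1 followed this block, at 0.85 with Col1a1 and 0.93 with Sparc, whereas its partner Col4a2 stood at 0.16 with Col1a1. Acta2 with Col1a1 gave 0.51, Hgf 0.0040 and Mmp14 -0.11, and Smoc2, which is not among these pairs, gave 0.18. The lowest of all pairs was Mmp14 with Loxl1 at -0.44.

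**Figure D5:**
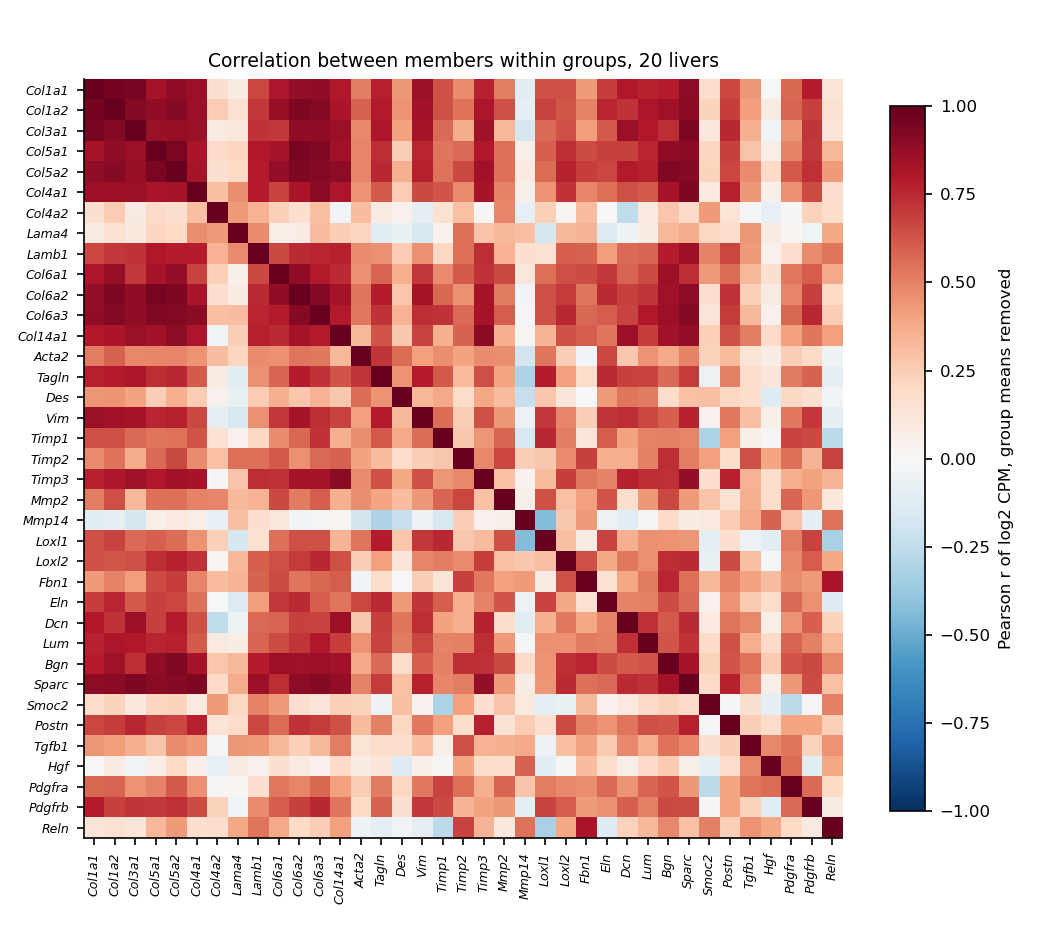
Pearson correlation of log2 CPM between the 36 tested members and Smoc2, over 20 livers with the group means removed, ordered by role on both axes and coloured from -1 (blue) to 1 (red). The fibril-forming and type VI collagens, Sparc and Bgn are among the dark red rows, and Mmp14, Hgf, Smoc2, Col4a2, Lama4 and Reln are among the pale ones.

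Some mice stood apart from their group over many members at once, and the correlations were not recomputed without them. In shRNA+BBR replicate 4, 35 of the 36 tested members lay above their group mean, by 0.49 on the log2 scale on average. In Vec replicates 3 and 5, 33 and 31 of them did, by 0.38 and 0.37. In Vec replicate 4, 3 did, and the average was -0.50. The shRNA livers were the most even, with averages between -0.091 and 0.11. With these mice left out in turn, the number of members higher in Vec+BBR was 22 without Vec replicate 3, 23 without Vec replicate 5 and 14 without Vec replicate 4. Over all tested genes, Vec+BBR against Vec gave 1908 calls with all mice, and 2395, 2228 and 1595 in these fits.

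Other genes of the matrix and of its signals were taken from 6 lists of 145 genes by role, of which 121 were tested. In Vec+BBR against Vec livers 24 of them were higher and 7 lower (median log2 change 0.31). These are 19.8% and 5.79%, against 7.58% and 7.88% of all tested genes. In shRNA+BBR against shRNA livers 26 were higher and 5 lower (median 0.32), or 21.5% and 4.13% against 8.37% and 7.28%. In shRNA against Vec livers 4 were higher and 9 lower, or 3.31% and 7.44% against 5.28% and 7.91% of all genes. In shRNA+BBR against Vec+BBR livers 2 were higher and 4 lower, or 1.65% and 3.31% against 3.31% and 4.82%. The shares in both knockdown comparisons lay below those of all genes. The difference of the BBR effects passed for 0 of the 121 by edgeR. At an unadjusted p under 0.05, 9 of the 121 were higher and 8 lower, against 9.79% and 8.69% of all genes. Serpinh1, the collagen chaperone HSP47, was higher with BBR in both, by 0.69 ± 0.21 (adjusted p = 0.0314) and 1.15 ± 0.22 (adjusted p = 0.00445). Tgm2, the cross-linking transglutaminase, was higher by 1.01 ± 0.22 (adjusted p = 0.0036) and 0.84 ± 0.22 (adjusted p = 0.0159). Of the other basement membrane genes, Nid1 was higher by 1.44 ± 0.29 (adjusted p = 0.00248) and Lamc1 by 0.65 ± 0.15 (adjusted p = 0.00567) in Vec livers, and edgeR called Lamc1 higher in shRNA+BBR livers as well. The list of other glycoproteins and proteoglycans, which includes Nid1 and Lamc1, had 34 tested genes, and most of its calls with BBR were higher. With Vec, edgeR called 10 higher and 1 lower (median log2 change 0.39). With shRNA, 8 were called higher and 1 lower (median 0.43). Spon2 rose most with Vec, by 1.80 ± 0.37 (adjusted p = 0.0027). The lower one with Vec was Vtn, the vitronectin gene, at -0.63 ± 0.12 (adjusted p = 0.0012). With shRNA it was Fn1, the fibronectin gene, at -0.61 ± 0.13 (adjusted p = 0.00619). Among the other proteases and inhibitors, Mmp13, a collagenase, changed by -2.90 ± 0.82 (adjusted p = 0.0235) in shRNA against Vec and by 3.69 ± 0.74 (adjusted p = 0.00534) in shRNA+BBR against shRNA livers. Of the 19 tested enzymes that modify collagen, 2 were higher and 3 lower in Vec+BBR livers, with Plod1 at -0.36 ± 0.092 (adjusted p = 0.0127) and Bmp1, the procollagen C-proteinase, at -0.40 ± 0.11 (adjusted p = 0.0204), and 7 were higher and 0 lower in shRNA+BBR livers by edgeR, against 9 and 1 at an unadjusted p under 0.05. Without BBR, 5 were lower and 1 higher in shRNA livers, with changes of -0.63 ± 0.092 (adjusted p = 0.000124) for the lysyl hydroxylase Plod1, -0.39 ± 0.091 (adjusted p = 0.00684) for P4hb, -0.48 ± 0.12 (adjusted p = 0.00991) for Plod3 and 0.98 ± 0.27 (adjusted p = 0.0192) for the prolyl hydroxylase P4ha2. Of the TGF-β genes, Tgfb3 was higher by 1.15 ± 0.31 (adjusted p = 0.0159) and Tgfb2 by 1.85 ± 0.53 (adjusted p = 0.0222) in Vec+BBR livers, and Smad7, an inhibitor of TGF-β signalling, was higher in shRNA livers by 0.81 ± 0.24 (adjusted p = 0.0274). Met, the receptor of Hgf, changed by -0.57 ± 0.12 (adjusted p = 0.00684) in shRNA+BBR against Vec+BBR and by -0.40 ± 0.12 (adjusted p = 0.0328) in shRNA+BBR against shRNA livers.

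Among the other cell types, the 6 endothelial markers summed to 77.1 to 102 CPM in Vec and 96.8 to 131 CPM in Vec+BBR, and to 110.0 to 138 CPM in shRNA livers and 94.5 to 132 CPM in shRNA+BBR livers. All 6 had positive changes in Vec+BBR against Vec livers (median 0.39). Of these, 3 were higher in Vec+BBR against Vec livers and 3 in shRNA against Vec livers, where 7.58% and 5.28% of all tested genes were higher. In shRNA+BBR against shRNA livers 1 was higher and 2 lower, where 8.37% of all tested genes were higher and 7.28% lower. The 6 macrophage markers summed to 85.9 to 177 CPM in Vec and 105 to 155 CPM in Vec+BBR livers, and 101 to 134 CPM in shRNA livers and 126 to 179.8 CPM in shRNA+BBR livers, with Cd68 higher by 0.64 ± 0.20 (adjusted p = 0.0373) and 0.88 ± 0.21 (adjusted p = 0.0112). Timd4, a marker of resident macrophages, was lower in Vec+BBR livers at -0.78 ± 0.25 (adjusted p = 0.041), and 5 of the 6 markers had negative changes there (median -0.13). The 5 cholangiocyte markers summed to 24.0 to 45.3 CPM in Vec and 50.3 to 96.6 CPM in Vec+BBR, and to 25.9 to 34.4 CPM in shRNA livers and 31.0 to 87.7 CPM in shRNA+BBR livers. Spp1 made up most of that sum, while the keratins Krt19 and Krt7 stayed at 0.501 to 1.502 and 0.304 to 1.22 CPM. The 4 mesothelial markers summed to at most 7.36 CPM in a liver. The 4 adipocyte markers summed to 0 to 0.834 CPM in Vec and 1.12 to 5.70 CPM in Vec+BBR livers, and 0 to 0.228 CPM in shRNA livers and 0.824 to 5.02 CPM in shRNA+BBR livers. The median of this sum in shRNA livers, 0.0805 CPM, was under the floor of 0.120 to 0.172 CPM. No fold is therefore given for Cfd, the only 1 of them that passed the filter. Lep was at 0 in 19 of 20 livers, Plin1 at 0 in 17 and Adipoq at 0.476 CPM or less. The 4 hepatocyte markers found in the files summed to 105257 to 135465 CPM in Vec and 82561 to 117228 CPM in Vec+BBR livers, and 101001 to 118109 CPM in shRNA livers and 94477 to 115423 CPM in shRNA+BBR livers.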

How the data were processed

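Liver RNA of 20 mice was sequenced after poly(A) selection, with a kit that does not mark strand, and the samples were grouped by the submitters' treatment labels into 4 groups of 5. The deposited files, 1 per mouse, hold estimated counts that the authors made per gene, of which 91.9% to 93.3% are whole numbers, and FPKM values computed by the authors, in which the length implied by counts and FPKM varies between libraries for some genes. Their processing notes name the genome build mm10, and the aligner and counter are not given in the sources used here. The estimated counts were rounded before testing.

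Genes were kept with filterByExpr (minimum count 10, minimum total 15), scaled by TMM and tested with the quasi-likelihood test of edgeR 4.0.16 in R 4.3.3, with all 4 groups in 1 fit and Benjamini-Hochberg adjustment over 12342 genes. The 95% intervals use the t distribution with the degrees of freedom of that test. The script was tested on simulated data. Among 40 pairs of libraries within groups none was a duplicate. The alternatives were a fit of only the groups compared, DESeq2 1.42.0, its size factors (RLE), no filter on low counts, unadjusted p-values, a replicate block and leaving out each mouse. With 5 mice a group and totals of 17432903 to 25024094, a count of 0 allows up to 3 counts, or 0.120 to 0.172 CPM. This floor covers counting error only. The labels name no litter, cage or batch, so p-values measure the spread between these mice.

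The members and lists were chosen with earlier results of these data known. Members with all values given are those called in at least 1 comparison or whose groups did not overlap in 1 at an unadjusted p under 0.05, 21 of 36, and Acta2, Timp1 and Smoc2. From each other list at most 4 called genes with the smallest p in a comparison are named. Some genes that this rule would name are not reported here. Promoter windows are from RefSeq on GRCm38.p6 and gene positions from GENCODE M21 on the same build.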

Additional observations from a re-analysis of the deposited data

Results flagged for a closer look

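Within each group of 5 mice, the highest and lowest values of each member but Smoc2 were compared with the rest by Dixon's test, and 10 of 148 sets had a mouse far from the other 4, where chance flags about 1 in 20. In shRNA+BBR replicate 4 this held for Col1a1 at 28.0 CPM (others 10.95 to 14.9), Col1a2 at 39.1 CPM (others 15.6 to 21.3), Timp3 at 48.8 CPM (others 35.6 to 39.3) and the proteoglycan gene Lum at 11.7 CPM (others 4.02 to 5.16), the same mouse that stood above its group for 35 of 36 members. Without that mouse 6 members were higher in shRNA+BBR livers, and Col1a1 and Col1a2 were among them.

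Vec+BBR replicate 2 was the highest of its group for Timp2 at 16.1 CPM (others 11.4 to 12.3) and for Hgf at 1.88 CPM (others 0.618 to 0.941). Vec+BBR replicate 3 was the highest for Lox at 0.809 CPM (others 0.257 to 0.357), and among all 20 livers it also had the highest level of the adipocyte genes Lep at 0.523 CPM, Adipoq at 0.476 CPM and Plin1 at 0.143 CPM. The part of such RNA in the Lox value was not tested. Vec+BBR replicate 1 was the lowest for Postn at 9.15 CPM (others 13.4 to 14.997). Among the shRNA livers, replicate 1 was the highest for Col6a3 at 3.56 CPM (others 2.71 to 2.94) and replicate 2 for Loxl1 at 1.23 CPM (others 0.482 to 0.640).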

How the results depend on the processing

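The direction of each called member held under all alternatives run. The number of members called in Vec+BBR against Vec livers stayed between 14 and 23 with each mouse left out, and 14 of the 19 were called in every alternative fit. In shRNA+BBR against shRNA livers it lay between 6 and 18, and 6 of the 13 were called in every fit. It lay between 0 and 7 in shRNA against Vec, between 1 and 7 in shRNA+BBR against Vec+BBR livers and at 0 for the difference of the BBR effects. With unadjusted p-values the counts were 25 in shRNA+BBR against shRNA, 8 in shRNA against Vec, 11 in shRNA+BBR against Vec+BBR and 6 for the difference. DESeq2 gave 2, 5 and 1 in the last 3 of these. A fit of only the groups compared gave 0 in shRNA against Vec livers, where it tests fewer genes on fewer mice. RLE scaling gave 19, 13, 1, 3 and 0 members. Over all tested genes, a fit of only the groups compared called 1178 genes in Vec+BBR against Vec livers where the fit of all groups called 1908, and DESeq2 called 330 for the difference where edgeR called 18. The causes were not tested.

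Mice of different groups share replicate numbers, but a number marks no shared litter, batch or day in the labels, and deviations from the group means correlated above 0.1 in 0 of 5 pairs between Vec and shRNA and in 3 of 5 between shRNA and shRNA+BBR. With the replicate block the number of members called was 17, 10, 0, 3 and 0 in the order of the 5 comparisons. The calls lost were Col6a2 and Eln in Vec+BBR against Vec, Col6a2, Col5a2 and Tagln in shRNA+BBR against shRNA and Col1a1 in shRNA against Vec livers.

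Ratios of counts in place of FPKM between chains of 1 collagen, an alternative chosen after seeing the data, moved no ratio of group means by more than 1 SD of the group without BBR. The largest shift was in Col5a1 to Col5a2, whose mean in Vec+BBR over that in Vec livers was 0.609 in FPKM and 0.805 in counts. Whether the ranges of livers with and without BBR overlapped did depend on the measure for some ratios, such as Col5a1 to Col5a2 in the knockdown.

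Members under about 1 CPM, such as Timp1 and Lox, rest on few counts, so that differences in them were not detectable at this depth unless large.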
